A study of Mus musculus with 24 samples.

Results

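The angiopoietin and VEGF receptor genes were a set of 10 genes, chosen by symbol from the 43346 genes of a count table of mouse cortex: the receptor genes Tek, Tie1, Kdr, Flt1 and Flt4, the ligand genes Angpt1, Angpt2 and Vegfa, and the co-receptor genes Nrp1 and Eng. All 10 were present and all 10 passed the filter on low counts. RNA of the cortex was sequenced from 24 mice, 1 library per mouse, in 4 groups of 6. Of the mice with the genotype label Abca7, which the series describes as heterozygous for Abca7, 6 received LPS and 6 had the stimulus label none; of the mice with the genotype label control, 6 received LPS and 6 had the stimulus label none. LPS, lipopolysaccharide, is a bacterial cell wall molecule that switches on innate immunity; it was injected, at a dose, by a route and at a time before collection that the sources used here do not state. The mice were 54 to 56 days old in both LPS groups; without LPS they were 55 to 58 days old under the Abca7 label and 55 to 57 days old among controls. Abca7 codes for a lipid transporter, and the aim stated for the series was to relate this gene to inflammation in the brain.

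These genes govern how blood vessels grow, rest and leak. VEGF-A binds the receptor kinases VEGFR1 (Flt1) and VEGFR2 (Kdr) on endothelial cells, with neuropilin 1 (Nrp1) as a co-receptor, and VEGFR3 (Flt4) answers mainly to VEGF-C and VEGF-D. Angiopoietin 1 (Angpt1) activates the receptor kinase Tie2 (Tek) and keeps vessels quiescent, whereas angiopoietin 2 (Angpt2), which endothelial cells store and release, opposes or replaces it depending on context. Tie1 is a relative of Tie2 with no well established ligand of its own that forms complexes with it, and endoglin (Eng) is a co-receptor for TGF-beta family ligands such as BMP9. In the brain these receptors are best known from endothelium, while VEGF-A is made largely by glia and neurons.

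The promoters of 8 of the 10 genes were in the RefSeq promoter table (build GRCm38.p6), all but Angpt1 and Angpt2. Those of the receptor genes that moved most under LPS are shown, Tek, Tie1 and Kdr, which were lower, and Flt4, which was higher. Each line gives the 250 bases before the RefSeq gene start, from 5' to 3', on the strand of the gene. Capitals mark matches on either strand to GGAAG, letters that ETS factors can bind (CTTCC on the other strand), and to ACAAAG, letters that SOX factors can bind. The shorter GGAA was not searched, so unmarked copies of it stand in these lines, also in that of Tek. Other letters of the SOX kind, such as AACAAT, were not searched either. The Tek line holds an unmarked ATTGTT, which is AACAAT on the other strand.
Tek promoter (chr4:94739039-94739288, plus strand): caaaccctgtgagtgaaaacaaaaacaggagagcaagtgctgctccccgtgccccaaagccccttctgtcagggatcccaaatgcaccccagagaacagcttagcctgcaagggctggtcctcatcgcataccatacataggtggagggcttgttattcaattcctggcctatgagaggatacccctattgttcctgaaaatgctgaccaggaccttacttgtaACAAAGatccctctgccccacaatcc
Tie1 promoter (chr4:118489850-118490099, minus strand): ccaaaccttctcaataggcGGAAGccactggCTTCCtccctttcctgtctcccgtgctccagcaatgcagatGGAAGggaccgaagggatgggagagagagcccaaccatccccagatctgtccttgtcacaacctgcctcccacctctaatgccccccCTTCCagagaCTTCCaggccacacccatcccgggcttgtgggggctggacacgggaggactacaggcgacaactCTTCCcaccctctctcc
Kdr promoter (chr5:75978456-75978705, minus strand): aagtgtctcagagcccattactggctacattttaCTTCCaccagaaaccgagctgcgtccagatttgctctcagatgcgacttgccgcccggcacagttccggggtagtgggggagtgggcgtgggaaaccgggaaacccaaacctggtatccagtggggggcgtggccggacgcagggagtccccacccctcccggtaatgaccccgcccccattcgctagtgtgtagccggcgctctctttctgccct
Flt4 promoter (chr11:49609429-49609678, plus strand): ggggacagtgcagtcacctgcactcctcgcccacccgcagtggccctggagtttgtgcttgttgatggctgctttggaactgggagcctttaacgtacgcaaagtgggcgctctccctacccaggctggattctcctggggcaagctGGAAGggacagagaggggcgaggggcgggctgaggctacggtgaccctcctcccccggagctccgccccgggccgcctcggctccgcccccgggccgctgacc
The RefSeq start of Tie1 lies 212 bases, and that of Flt4 416 bases, from the gene start in the count table, so the Tie1 window lies partly, and the Flt4 window wholly, inside the gene as the table draws it. Over windows of 300 bases, which add 50 bases after the start, GGAAG occurred in 7 of the 8 promoters, against 71.41% of all 32851 promoters in the table. Tie1 held 7 matches to it, 6 of them in the stretch shown, and Tek held none. ACAAAG occurred in the promoters of Tek, 26 bases before the start, and Eng, 67 bases before it, against 18.71% of all promoters. Neither ACAATG, another SOX sequence found in 12.57% of all promoters, nor ACGTG, letters that hypoxia-inducible factors can bind and found in 19.62%, occurred in any of the 8 windows. The variant GCGTG was not searched, and unmarked copies of it stand in the Kdr line, so absence of ACGTG is not absence of all such letters. Sequence outside these windows was not searched, and for Vegfa only the nearest of 2 listed promoters was used. No match overlapped another. The letters searched were chosen with these sequences in view, and a match describes letters and not binding.

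Depth was between 48149131 and 75741388 counts per library. Ribosomal RNA loci took 5.88% to 18.7% of the counts. The lowest count of any of the 10 genes in any library was 59, for Angpt2. Markers of brain cells were present in every library, although they do not tell cortex from other brain regions. The 12 neuron markers summed to between 8133 and 9303 CPM per library and the 12 astrocyte markers to between 4670 and 5406 CPM. Abca7 itself averaged 29.4 ± 2.3 CPM (counts scaled to the library total, TMM factors included) under LPS and 32.1 ± 2.07 CPM without LPS in mice labelled Abca7, against 24.5 ± 2.66 CPM under LPS and 28.6 ± 2.22 CPM without LPS in control mice (SD, n = 6 each), so its RNA was not lower under the Abca7 label. The labels do not describe the allele, so counts over the whole gene check the label only in part. A library, replicate 4 of the LPS mice labelled Abca7, stood apart from its group in genes of endothelial activation and in Cdh5, but not in endothelial markers as a whole. Genes of endothelial activation summed to 153.7 CPM in it, against 266.3 to 344.4 CPM in the other 5 libraries of the group and 112 to 127 CPM in mice labelled Abca7 without LPS. Its Cdh5 level was 13.1 CPM, where the other 5 had 23.6 to 30.6 CPM and mice labelled Abca7 without LPS had at most 12.8 CPM. Endothelial markers summed to 470.7 CPM in replicate 4, close to the 468.8 CPM of replicate 5 of the same group. The Cldn5 level of replicate 4, 5.04 CPM, lay inside the group's range of 3.42 to 6.79 CPM.

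Levels of different genes were compared per kilobase of the gene length that the count table gives, and Vegfa had the highest level of the 10 genes in each group. In mice labelled Abca7 without LPS the order of mean levels, in CPM per kilobase, was Vegfa with 13.6, Nrp1 with 5.87, Flt1 with 5.31, Eng with 5.20, Tek with 2.64, Tie1 with 2.30, Kdr with 1.33, Angpt1 with 1.28, Flt4 with 0.415 and Angpt2 with 0.357. Control mice without LPS had the same order except that Angpt1 and Kdr changed places, and those neighbours overlapped in both groups. Tek and Tie1 overlapped in mice labelled Abca7 only. The ranges of Nrp1, Flt1 and Eng also ran into each other, as did those of Flt4 and Angpt2. Under LPS the order of the less abundant genes was different. In mice labelled Abca7 with LPS, Tie1 (1.26 CPM per kilobase), Angpt1 (1.21), Tek (0.901), Angpt2 (0.869), Flt4 (0.744) and Kdr (0.623) followed each other, each overlapping the next. In control mice with LPS, Angpt2 (1.28 CPM per kilobase) stood next to Angpt1 (1.26) and Tie1 (1.17), with Flt4 (0.779), Tek (0.762) and Kdr (0.704) below them. The table's length is shorter than the exons of GENCODE M21 for 4 of these genes, and part of the order depends on it. With the M21 exon length, a setting added after the data were seen, Vegfa stayed highest in each group, but Nrp1 came 4th in each, below Eng and Flt1, with 3.54 CPM per kilobase in mice labelled Abca7 without LPS and 3.55 in control mice without LPS.

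**Figure D1:**
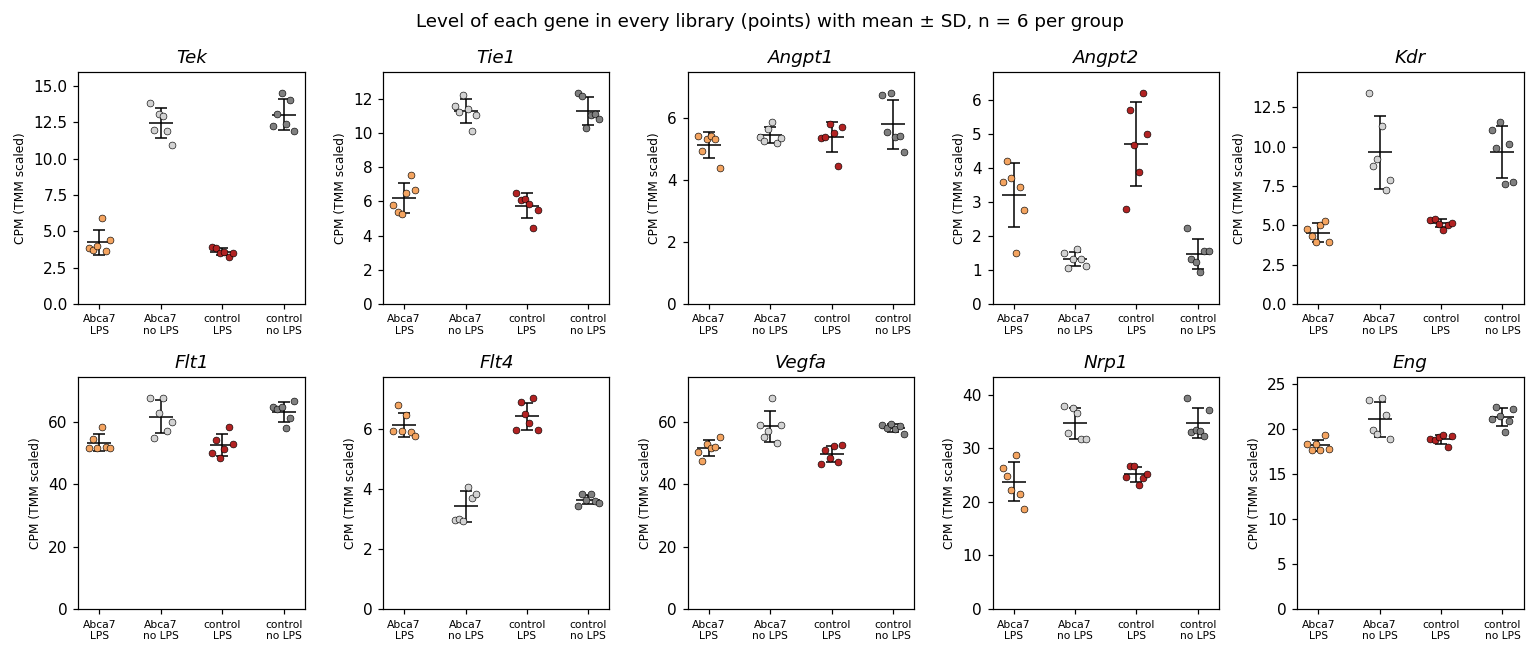
Level of each of the 10 genes in every library, in CPM with TMM scaling on linear axes from 0; points are libraries, and the horizontal mark and bars are the mean and SD of 6 libraries. Tek is between 3.24 and 5.94 CPM in the LPS libraries of both genotypes and at 10.97 CPM or more in all libraries without LPS, Flt4 and Angpt2 run the other way, and Angpt1 overlaps in all groups.

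The first comparison asked how LPS changed the receptors, ligands and co-receptors in each genotype. In mice labelled Abca7, 2 of the 10 genes rose (6.65% of the 21891 genes tested rose) and 7 fell (5.18% of all genes fell). In control mice, again 2 rose (9.39% of all genes rose) and 7 fell (7.92% of all genes fell). In both genotypes Angpt2 and Flt4 rose, Tek, Tie1, Kdr, Flt1, Vegfa, Nrp1 and Eng fell, and Angpt1 did not pass the test. The libraries of the 2 groups did not overlap for 5 of the 10 genes in mice labelled Abca7, against 5.73% of all genes, and for 8 of the 10 in control mice, against 9.06% of all genes. The median log2 fold change of the 10 genes was -0.21 in mice labelled Abca7 and -0.25 in control mice, beside 0.01 for all genes in each. A call here is an adjusted p under 0.05 in edgeR's quasi-likelihood test after Benjamini-Hochberg adjustment across the genes tested, and fold changes are LPS over no LPS. Cortex is a mixture, and in such bulk RNA fewer cells of a type and less RNA per cell cannot be told apart.

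Tek (ENSMUSG00000006386, chr4:94739289-94874976 in mm10), the receptor of both angiopoietins, had the largest change of the 10 genes. Among mice labelled Abca7 its lowest, median and highest levels were 3.66, 3.91 and 5.94 CPM under LPS and 10.97, 12.5 and 13.8 CPM without LPS. Among control mice they were 3.24, 3.53 and 3.91 CPM under LPS and 11.9, 12.7 and 14.5 CPM without LPS. Every LPS library lay far below every library without LPS, and within the LPS libraries labelled Abca7 a single one, replicate 4, stood above the other 5. Tek fell by 1.55 ± 0.09 on the log2 scale (SE; edgeR adjusted p = 5.54e-13) in mice labelled Abca7, which is 2.94-fold lower. It fell by 1.86 ± 0.09 (edgeR adjusted p = 1.46e-14) in control mice, or 3.63-fold.

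Tie1 (ENSMUSG00000033191, chr4:118471191-118490061), the partner of Tek, moved the same way by a smaller amount. In mice labelled Abca7 it had 5.29, 6.14 and 7.58 CPM under LPS (lowest, median and highest) and 10.1, 11.3 and 12.2 CPM without LPS. In control mice it had 4.43, 5.95 and 6.50 CPM under LPS and 10.3, 11.1 and 12.4 CPM without LPS. The groups were apart in both genotypes. Tie1 fell by 0.87 ± 0.09 (edgeR adjusted p = 1.22e-08) in mice labelled Abca7 and by 0.98 ± 0.09 (edgeR adjusted p = 9.05e-10) in control mice on the log2 scale.

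Among the VEGF receptors, Kdr (ENSMUSG00000062960, chr5:75932827-75978458), which carries most of the growth and permeability signal of VEGF-A, was low under LPS. Its lowest, median and highest levels were 3.91, 4.55 and 5.29 CPM under LPS and 7.24, 8.998 and 13.4 CPM without LPS in mice labelled Abca7. They were 4.72, 5.13 and 5.42 CPM under LPS and 7.62, 10.1 and 11.6 CPM without LPS in control mice. The groups did not overlap in either genotype, and the libraries without LPS were the more spread ones. Kdr fell by 1.08 ± 0.13 (edgeR adjusted p = 2.67e-07) in mice labelled Abca7 and by 0.92 ± 0.13 (edgeR adjusted p = 2.51e-06) in control mice on the log2 scale.

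Flt1 (ENSMUSG00000029648, chr5:147561604-147726011) binds VEGF-A tightly but signals weakly, and can act as a trap for it. It had 51.5, 51.8 and 58.2 CPM under LPS and 54.8, 61.3 and 67.5 CPM without LPS in mice labelled Abca7, and 48.2, 52.1 and 58.4 CPM under LPS and 57.9, 64.3 and 66.7 CPM without LPS in control mice. The LPS libraries were lower as a group but overlapped the others in both genotypes. The drop was smaller than that of Kdr: Flt1 fell by 0.21 ± 0.05 (edgeR adjusted p = 0.00608) in mice labelled Abca7 and by 0.27 ± 0.05 (edgeR adjusted p = 0.000373) in control mice. The sizes of these drops were not tested against each other.

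Flt4 (ENSMUSG00000020357, chr11:49609263-49652739), the VEGF-C receptor gene known for lymphatic endothelium and for sprouting vessels, ran against the other receptors. It had 5.75, 5.93 and 6.77 CPM under LPS and 2.94, 3.34 and 4.05 CPM without LPS in mice labelled Abca7. It had 5.96, 6.34 and 7.02 CPM under LPS and 3.43, 3.63 and 3.82 CPM without LPS in control mice. All LPS libraries lay above all libraries without LPS. Flt4 rose by 0.84 ± 0.08 (1.79-fold, edgeR adjusted p = 5.77e-09) in mice labelled Abca7 and by 0.82 ± 0.08 (1.76-fold, edgeR adjusted p = 5.72e-09) in control mice. Of 9 lymphatic and perivascular macrophage markers, 1 rose and 3 fell in each genotype. Beside this, 6.65% of all genes tested rose and 5.18% fell in mice labelled Abca7, and 9.39% rose and 7.92% fell in control mice. Pdpn, the podoplanin gene, which other cells of brain and meninges also express, rose by 0.54 ± 0.12 (edgeR adjusted p = 0.00278) in mice labelled Abca7 and by 0.86 ± 0.12 (edgeR adjusted p = 5.13e-06) in control mice. Stab1 fell by 0.98 ± 0.08 in mice labelled Abca7 and by 1.28 ± 0.08 in control mice, and Cd163 by 0.70 ± 0.12 in mice labelled Abca7 and by 0.77 ± 0.12 in control mice. The lymphatic regulator Prox1, which neurons and glia also express, had log2 fold changes of 0.16 in mice labelled Abca7 and 0.01 in control mice (edgeR adjusted p = 0.649 and 0.981). Lyve1, a lymphatic receptor gene with at most 2.29 CPM in any library, had -0.60 and -0.74 (edgeR adjusted p = 0.168 and 0.0559). Their part in the change of Flt4 was not tested.

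Of the ligands, Angpt2 (ENSMUSG00000031465, chr8:18690263-18741562) rose. In mice labelled Abca7 its lowest, median and highest levels were 1.51, 3.51 and 4.22 CPM under LPS and 1.05, 1.32 and 1.61 CPM without LPS. In control mice they were 2.79, 4.84 and 6.21 CPM under LPS and 0.948, 1.43 and 2.23 CPM without LPS. The groups were apart in control mice, whereas in mice labelled Abca7 the lowest LPS library, again replicate 4, fell within the range of the libraries without LPS. Angpt2 rose by 1.29 ± 0.22 (2.45-fold, edgeR adjusted p = 7.49e-05) in mice labelled Abca7 and by 1.68 ± 0.21 (3.20-fold, edgeR adjusted p = 6.69e-07) in control mice.

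Angpt1 (ENSMUSG00000022309, chr15:42424727-42676977), the activating ligand, was the exception. It had 4.37, 5.33 and 5.42 CPM under LPS and 5.19, 5.35 and 5.88 CPM without LPS in mice labelled Abca7, and 4.46, 5.44 and 5.81 CPM under LPS and 4.88, 5.48 and 6.80 CPM without LPS in control mice. The groups overlapped widely. Its log2 fold change was -0.09 ± 0.08 (edgeR adjusted p = 0.592) in mice labelled Abca7, with a 95% interval of -0.25 to 0.08, and -0.11 ± 0.08 (edgeR adjusted p = 0.415) in control mice, with an interval of -0.28 to 0.06. An antisense gene, Gm17473, shares 737 exon bases with Angpt1, or 14.16% of its exon sequence, and the table gives it 26 to 63 counts per library. How far the counts of both genes can be separated depends on a strand setting that the sources used here do not state.

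Vegfa (ENSMUSG00000023951, chr17:46016993-46032377) had 47.4, 51.7 and 55.1 CPM under LPS and 53.1, 58.1 and 67.6 CPM without LPS in mice labelled Abca7. It had 46.5, 49.7 and 52.7 CPM under LPS and 56.0, 58.2 and 59.3 CPM without LPS in control mice. The groups overlapped in mice labelled Abca7 and were apart in control mice, with a small difference in each. Vegfa fell by 0.18 ± 0.05 (edgeR adjusted p = 0.00667) in mice labelled Abca7 and by 0.23 ± 0.05 (edgeR adjusted p = 0.000682) in control mice on the log2 scale.

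The co-receptors fell as well. Nrp1 (ENSMUSG00000025810, chr8:128359073-128505462), which also serves semaphorin 3A on neurons, had 18.7, 23.5 and 28.8 CPM under LPS and 31.7, 34.6 and 37.9 CPM without LPS in mice labelled Abca7. In control mice it had 23.2, 25.0 and 26.7 CPM under LPS and 32.3, 33.4 and 39.3 CPM without LPS. The groups were apart in both genotypes, and the LPS libraries labelled Abca7 were the most spread. Nrp1 fell by 0.54 ± 0.08 (edgeR adjusted p = 5.42e-06) in mice labelled Abca7 and by 0.47 ± 0.08 (edgeR adjusted p = 3.89e-05) in control mice.

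Eng (ENSMUSG00000026814, chr2:32646595-32682669) had 17.6, 18.0 and 19.3 CPM under LPS and 18.9, 20.7 and 23.4 CPM without LPS in mice labelled Abca7, and 17.95, 18.9 and 19.3 CPM under LPS and 19.7, 21.2 and 22.4 CPM without LPS in control mice. The groups overlapped in mice labelled Abca7 and were narrowly apart in control mice. Eng fell by 0.21 ± 0.05 (edgeR adjusted p = 0.00283) in mice labelled Abca7 and by 0.17 ± 0.05 (edgeR adjusted p = 0.0116) in control mice, the smallest of the called changes there.

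Without replicate 4 of the LPS mice labelled Abca7, 9 of the 10 genes were still called in that genotype. Over all genes, 2841 were called there without that library and 2591 with it. The log2 fold changes were then -1.67 for Tek, -0.88 for Tie1, -1.11 for Kdr, -0.24 for Flt1, 0.82 for Flt4, 1.43 for Angpt2, -0.10 for Angpt1, -0.19 for Vegfa, -0.61 for Nrp1 and -0.21 for Eng.

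**Figure D2:**
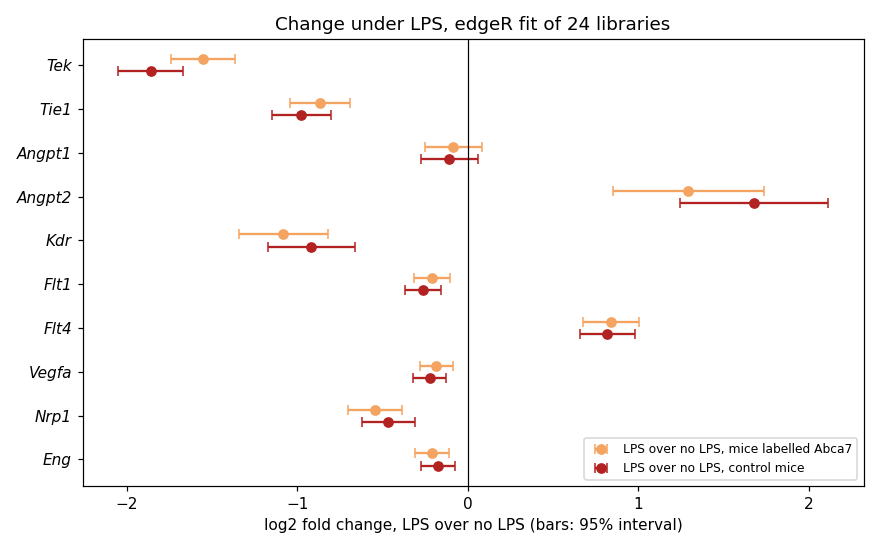
Log2 fold change of the 10 genes, LPS over no LPS, in mice labelled Abca7 (upper point of each pair) and control mice (lower point), with 95% intervals from the edgeR fit of 24 libraries. Angpt2 and Flt4 lie right of 0, Angpt1 has intervals that cover 0, and the other 7 genes lie left of 0, with Tek farthest at -1.55 and -1.86.

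Ratios within a library put these genes side by side, on the scale of CPM per kilobase and with no test, since the 4 ratios were chosen with the changes known. The median ratio of Angpt2 to Angpt1 was 0.753 under LPS and 0.281 without LPS in mice labelled Abca7, and 0.97 under LPS and 0.303 without LPS in control mice. The ranges were 0.322 to 0.99 under LPS and 0.231 to 0.322 without LPS in mice labelled Abca7, meeting at the lowest LPS library, and 0.603 to 1.61 under LPS and 0.204 to 0.382 without LPS in control mice. The LPS libraries were the higher ones apart from that one. With the M21 exon length the medians were 0.921 under LPS and 0.344 without LPS in mice labelled Abca7, and 1.19 under LPS and 0.37 without LPS in control mice, and in some LPS libraries whether Angpt2 exceeded Angpt1 depended on the length used. The ratio of Tie1 to Tek had a median of 1.42 under LPS and 0.871 without LPS in mice labelled Abca7, and 1.54 under LPS and 0.862 without LPS in control mice. No library without LPS had more Tie1 than Tek per kilobase, and every LPS library had more Tie1. The median ratio of Flt1 to Kdr was 7.59 under LPS and 4.10 without LPS in mice labelled Abca7, and 6.38 under LPS and 3.91 without LPS in control mice. That of Vegfa to Kdr was 18.2 under LPS and 10.6 without LPS in mice labelled Abca7, and 16 under LPS and 9.81 without LPS in control mice. Both of these ratios were higher in every LPS library than in any library without LPS of the same genotype.

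**Figure D3:**
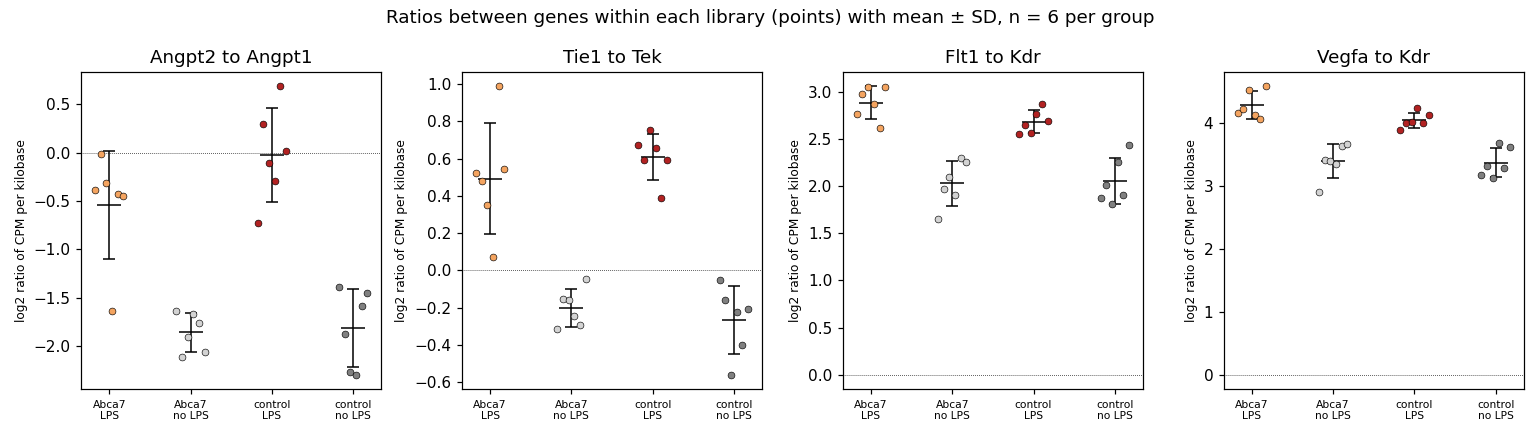
Log2 ratio of CPM per kilobase of 4 gene pairs in every library, with the mean and SD of 6 libraries per group; the dotted line marks equal levels. Tie1 to Tek lies above 0 in all LPS libraries and below 0 in all libraries without LPS, and Angpt2 to Angpt1 is higher under LPS, with 1 LPS library labelled Abca7 at the level of the libraries without LPS.

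Age differed between the LPS groups and the others, and the changes were therefore also read within ages that both held. At 55 days (2 LPS libraries and 3 without LPS labelled Abca7, 2 of each in control mice), the difference of mean log2 CPM for Tek was -1.57 in mice labelled Abca7 and -1.80 in control mice, beside 1.30 and 1.25 for Angpt2. At 56 days (2 LPS libraries and 1 without LPS labelled Abca7, 3 of each in control mice), it was -1.79 in mice labelled Abca7 and -1.89 in control mice for Tek, beside 1.55 and 1.73 for Angpt2. Every called gene of the 10 kept its direction at both ages and in both genotypes. Angpt1 did not: its difference in control mice was 0.10 at 55 days and -0.31 at 56 days.

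The second comparison asked whether the genotype label changed these genes. Without LPS, none of the 10 differed by edgeR's test or by DESeq2, and 0 of the 10 had an unadjusted p under 0.05; over all genes edgeR called 0.032%. The log2 difference, Abca7 over control, lay between -0.17 for Angpt2 (95% interval -0.63 to 0.30) and 0.01 for Vegfa (interval -0.08 to 0.11). Differences of the size of the LPS change in Tek or Tie1 lie outside those genes' intervals, which were -0.25 to 0.11 for Tek and -0.17 to 0.17 for Tie1.

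Under LPS, edgeR and DESeq2 again called 0 of the 10 genes, and edgeR called 0% of all genes; 2 of the 10 had an unadjusted p under 0.05. Tek averaged 4.25 ± 0.87 CPM in LPS mice labelled Abca7 and 3.59 ± 0.25 CPM in LPS control mice (SD, n = 6 each), a log2 difference of 0.24 ± 0.10 (edgeR adjusted p = 0.52; two-sided exact permutation p = 0.0455). Angpt2 averaged 3.21 ± 0.95 CPM in LPS mice labelled Abca7 and 4.72 ± 1.24 CPM in LPS control mice, a log2 difference of -0.55 ± 0.20 (edgeR adjusted p = 0.464; two-sided exact permutation p = 0.0519). Both means were closer to their levels without LPS in LPS mice labelled Abca7, and neither difference passed the test over all genes. Replicate 4 of the LPS mice labelled Abca7 held the highest Tek, 5.94 CPM, and the lowest Angpt2, 1.51 CPM, of its group. Without that library the log2 differences were 0.12 for Tek (edgeR adjusted p = 0.66) and -0.41 for Angpt2 (edgeR adjusted p = 0.488).

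The interaction, the LPS effect in mice labelled Abca7 minus that in control mice, was called for 0 of the 10 genes by edgeR and by DESeq2 and for 0% of all genes by edgeR. For Tek it was 0.31 ± 0.13 on the log2 scale (95% interval 0.04 to 0.57; unadjusted p = 0.0254, edgeR adjusted p = 1), and 0.19 without replicate 4. It was the only one of the 10 with an unadjusted p under 0.05. For Angpt2 it was -0.39 ± 0.30, with an interval of -1.004 to 0.23. The interval for Kdr was -0.53 to 0.20 and that for Flt4 -0.21 to 0.25.

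The genes whose log2 CPM followed 4 of the 10 most closely over the 24 libraries were found among 14931 genes by the root mean square difference after each gene was centred on its mean. The 5 closest to Tek were Cx3cr1 (0.13), Slc40a1 (0.17), Cxcl12 (0.19), P2ry12 (0.23) and Gpr34 (0.25), where the SD of Tek itself was 0.87. Cx3cr1, P2ry12 and Gpr34 are known as microglial receptor genes, Slc40a1 codes for the iron exporter ferroportin and Cxcl12 for a chemokine. The closest to Angpt2 were Pik3ap1 (0.27), Tm4sf1 (0.29), Crispld2 (0.30), Tnfrsf1a (0.30) and Fcgr3 (0.31), with an SD of 0.83 for Angpt2. Vegfa, with an SD of only 0.13, was nearest to Inppl1, Ankrd27, Gm9917, Eml4 and Ppp2r5a (0.07 each). Angpt1, with an SD of 0.14, was nearest to Fnbp1, Ppp1r14c, Brinp3, Dock1 and Jarid2 (0.10 each), so for this gene the remaining difference is close to its own spread. All libraries share the LPS contrast, so genes that change alike under LPS come out as close. On the opposite strand, Gm9917 shares 41.5% of its exon bases with Rassf1, Ppp1r14c 29.2% with Gm26752 and Inppl1 18.8% with Gm10602.

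The other genes of these pathways moved in both directions. Beside the list counts here and below, 6.65% of all genes tested rose and 5.18% fell in mice labelled Abca7. In control mice, 9.39% rose and 7.92% fell. Of 26 tested genes for other ligands, phosphatases, semaphorins and co-receptors, 3 rose and 6 fell in mice labelled Abca7 (median log2 fold change -0.03), and 5 rose and 5 fell in control mice (median -0.02). Acvrl1, the ALK1 receptor that signals with endoglin, fell by 1.21 ± 0.09 (edgeR adjusted p = 8.84e-11) in mice labelled Abca7 and by 1.30 ± 0.09 (edgeR adjusted p = 1.5e-11) in control mice. Ptprb, the phosphatase VE-PTP that holds Tie2 inactive, fell by 1.22 ± 0.10 (edgeR adjusted p = 3.25e-10) in mice labelled Abca7 and by 1.26 ± 0.10 (edgeR adjusted p = 1.16e-10) in control mice. Sema3g, a semaphorin of arterial endothelium, fell by 0.91 ± 0.11 (edgeR adjusted p = 2.35e-07) in mice labelled Abca7 and by 1.25 ± 0.11 (edgeR adjusted p = 5.91e-10) in control mice. The remaining VEGF and angiopoietin ligands are named here after their values were seen. Pgf, placental growth factor, rose by 0.64 ± 0.19 (edgeR adjusted p = 0.0246) in mice labelled Abca7 and by 0.64 ± 0.18 (edgeR adjusted p = 0.0158) in control mice. Vegfc, a ligand of Flt4, fell by 0.43 ± 0.12 (edgeR adjusted p = 0.0184) in mice labelled Abca7, and its log2 fold change in control mice was -0.32 ± 0.12 (edgeR adjusted p = 0.0627). Vegfb (-0.01 in mice labelled Abca7 and -0.03 in control mice), Figf, the older symbol of Vegfd (-0.22 and -0.12), and Angpt4 (0.29 and 0.80) did not pass the test in either genotype.

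Among 34 tested genes of intracellular signalling, 4 rose and 4 fell in mice labelled Abca7 and 7 rose and 5 fell in control mice. Nos3, the endothelial nitric oxide synthase that VEGFR2 activates, fell by 1.16 ± 0.10 (edgeR adjusted p = 5.56e-10) in mice labelled Abca7 and by 1.17 ± 0.10 (edgeR adjusted p = 3.97e-10) in control mice. Plcg1, a phospholipase recruited by VEGFR2, fell by 0.17 ± 0.03 in mice labelled Abca7 and by 0.18 ± 0.03 in control mice. Rasip1, a regulator of endothelial junctions, rose by 0.87 ± 0.15 in mice labelled Abca7 and by 0.84 ± 0.15 in control mice. The antisense gene Gm15587 shares 25.2% of the exon bases of Nos3, and Izumo1 shares 20.4% of those of Rasip1, so part of these counts may belong to the neighbours.

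Genes that VEGF induces in endothelial culture rose for 6 and fell for 2 of 16 in mice labelled Abca7 (median -0.01), and likewise for 6 and 2 of 16 in control mice (median 0.10). The matrix protease genes Adamts9 and Adamts1 rose by 2.87 ± 0.16 and 2.26 ± 0.17 in mice labelled Abca7 and by 3.11 ± 0.16 and 2.70 ± 0.17 in control mice, and Plaur, the urokinase receptor gene, rose by 3.32 ± 0.24 in mice labelled Abca7 and by 3.90 ± 0.25 in control mice. Inflammatory stimuli are known to induce these genes as well. Of 14 genes downstream of endoglin and ALK1, 5 rose and 2 fell in mice labelled Abca7, and 5 rose and 3 fell in control mice. Id1 fell by 0.79 ± 0.09 in mice labelled Abca7 and by 0.74 ± 0.09 in control mice, and Smad6, an inhibitory SMAD gene, by 0.92 ± 0.17 in mice labelled Abca7 and by 0.99 ± 0.17 in control mice. Smad1 rose by 0.36 ± 0.06 in mice labelled Abca7 and by 0.45 ± 0.06 in control mice. All these calls are edgeR's.

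Hypoxia is the classical stimulus of Vegfa, and its genes were mixed. Of 21 hypoxia-induced genes, 3 rose and 4 fell in mice labelled Abca7 and 3 rose and 5 fell in control mice. Hk2, a hexokinase gene, rose by 0.78 ± 0.11 in mice labelled Abca7 and by 0.90 ± 0.11 in control mice, and Adm, the adrenomedullin gene, by 0.95 ± 0.15 in mice labelled Abca7 and by 1.20 ± 0.15 in control mice. P4ha1, a collagen hydroxylase gene, fell by 0.50 ± 0.07 in mice labelled Abca7 and by 0.60 ± 0.07 in control mice. Of 8 oxygen sensors and hypoxia factors, 2 rose and 1 fell in each genotype. Hif1a rose by 0.19 ± 0.04 in mice labelled Abca7 and by 0.22 ± 0.03 in control mice, Hif3a rose by 0.57 ± 0.13 in mice labelled Abca7 and by 0.60 ± 0.13 in control mice, and Hif1an, which inhibits HIF1, fell by 0.16 ± 0.04 in mice labelled Abca7 and by 0.20 ± 0.04 in control mice.

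**Figure D4:**
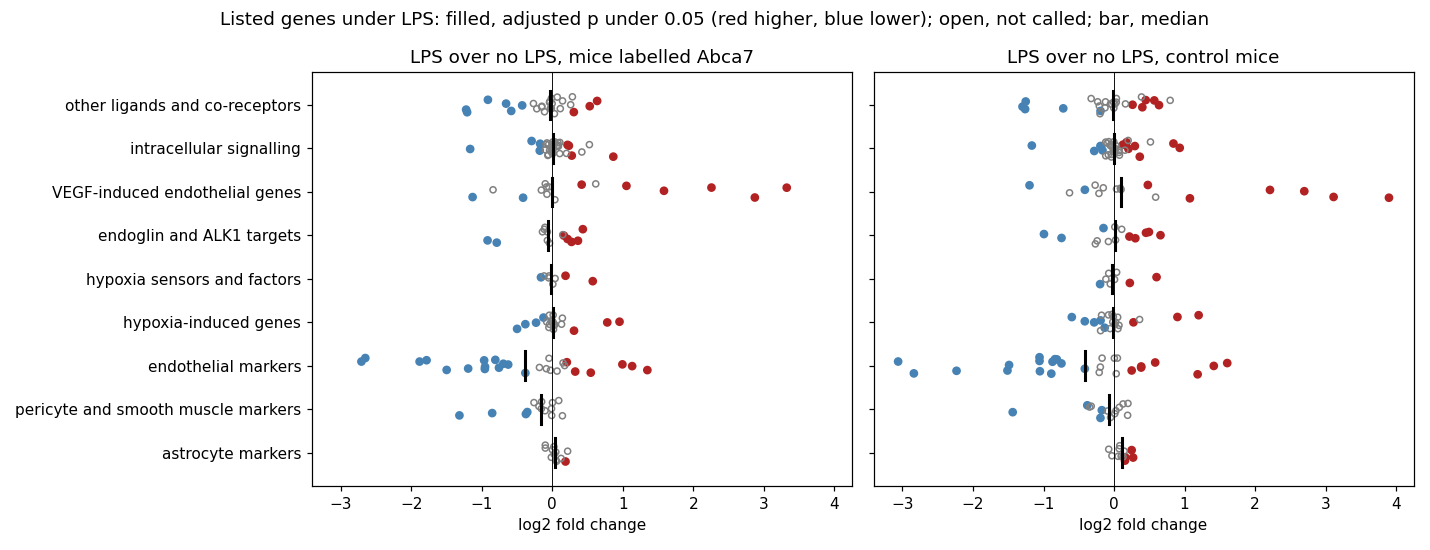
Log2 fold change, LPS over no LPS, of the tested genes of 9 lists, in mice labelled Abca7 (left) and control mice (right); filled points passed edgeR's adjusted p of 0.05 (red higher, blue lower), open points did not, and bars are medians. Among the 9 lists drawn, the endothelial markers have the lowest median, -0.38 in mice labelled Abca7 and -0.41 in control mice, and the 6 pathway lists have medians near 0. Of the lists not drawn, meningeal fibroblast markers have medians of -0.50 and -0.53 in the same order. Microglia markers, also not drawn, have -0.37 and -0.40, and erythrocyte markers -0.47 and -0.26.

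Endothelial markers moved in both directions under LPS, with more of them lower than higher. The part of vessel cell markers in the changes of the angiopoietin and VEGF receptor genes was not tested beyond a single model term. Of 27 endothelial markers, 6 rose and 14 fell in mice labelled Abca7, and 7 rose and 14 fell in control mice. Their summed level was 390 to 471 CPM under LPS and 539 to 575 CPM without LPS in mice labelled Abca7, and 413 to 461 CPM under LPS and 521 to 566 CPM without LPS in control mice. The members did not move as one: the transcription factor genes Sox17 and Sox18 changed by -2.71 ± 0.16 and -2.65 ± 0.19 in mice labelled Abca7 and by -3.06 ± 0.16 and -2.84 ± 0.20 in control mice, and the transporter gene Slco1a4 by -1.88 ± 0.16 in mice labelled Abca7 and by -2.23 ± 0.16 in control mice. Pecam1 fell by 0.62 ± 0.08 in mice labelled Abca7 and by 0.75 ± 0.08 in control mice, and the junction gene Cldn5 by 1.78 ± 0.17 in mice labelled Abca7 and by 1.49 ± 0.17 in control mice. Cdh5, VE-cadherin, rose by 1.13 ± 0.12 in mice labelled Abca7 and by 1.41 ± 0.12 in control mice. With log2 CPM of Pecam1 as a covariate, an alternative added after the data were seen, Tek and Flt4 were still called in both genotypes and the other 7 were not; Pecam1 itself did not overlap between LPS and no LPS, so that model has little left to separate them.

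Of 14 pericyte and smooth muscle markers, 0 rose and 4 fell in each genotype. Anpep, a peptidase gene of pericytes, fell by 1.32 ± 0.15 in mice labelled Abca7 and by 1.44 ± 0.15 in control mice, Acta2 fell by 0.35 ± 0.10 in mice labelled Abca7 and by 0.38 ± 0.10 in control mice, Rgs5 had -0.10 ± 0.06 (edgeR adjusted p = 0.29) in mice labelled Abca7 and fell by 0.19 ± 0.06 (edgeR adjusted p = 0.0161) in control mice, and Pdgfrb did not pass the test (0.14 in mice labelled Abca7 and 0.13 in control mice). Of 12 astrocyte markers, 1 rose in mice labelled Abca7 and 4 rose in control mice, none fell, and Aldh1l1 rose by 0.18 ± 0.05 in mice labelled Abca7 and by 0.27 ± 0.05 in control mice. Aqp4 (0.22 in mice labelled Abca7 and 0.25 in control mice) and Gja1 (0.13 and 0.16) passed the test in control mice only, and that difference between genotypes was not called. Of 12 neuron markers 0 rose and 1 fell in each genotype: Neurod6 fell by 0.46 ± 0.08 in mice labelled Abca7 and by 0.63 ± 0.08 in control mice, and Tubb3 (0.13 and 0.10) and Camk2a (-0.07 and -0.12) did not pass. Of 14 microglia markers, 3 rose and 10 fell in mice labelled Abca7 and 2 rose and 10 fell in control mice. Cx3cr1 changed by -1.45 ± 0.12, Tmem119 by -0.83 ± 0.10 and Gpr34 by -1.65 ± 0.18 in mice labelled Abca7, against -1.77 ± 0.12, -1.17 ± 0.10 and -2.12 ± 0.19 in control mice.

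Choroid plexus markers were uneven between libraries. Of 10, 0 were called in mice labelled Abca7, whereas 8 rose and 0 fell in control mice. The lowest adjusted p in control mice belonged to Kl (-0.19 in mice labelled Abca7 and 1.70 in control mice), Clic6 (-0.15 and 1.11) and Enpp2 (-0.17 and 0.69). Ttr, the transthyretin gene of that tissue, had 24.3, 265 and 381 CPM (lowest, median and highest) under LPS and 48.0, 392 and 449 CPM without LPS in mice labelled Abca7, and 165, 250 and 485 CPM under LPS and 4.94, 12.8 and 261 CPM without LPS in control mice. With log2 CPM of Ttr as a covariate, Vegfa (-0.21, edgeR adjusted p = 0.0576) and Eng (-0.16, edgeR adjusted p = 0.223) were no longer called in control mice, and the other 7 called genes were. The part of choroid plexus RNA in these changes was not tested otherwise. Of 10 meningeal fibroblast markers, 0 rose in either genotype and 5 fell in mice labelled Abca7 and 6 in control mice, with medians of -0.50 in mice labelled Abca7 and -0.53 in control mice. Slc22a6, Slc6a13 and Col1a2 fell by 1.08, 0.94 and 0.49 in mice labelled Abca7 and by 1.53, 1.07 and 0.45 in control mice. Of 6 erythrocyte markers, 0 were called in either genotype (Alas2 and Hbb-bt had -0.13 and -0.73 in mice labelled Abca7 and -0.33 and -0.52 in control mice).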

How the data were processed

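For 24 cortex libraries the authors deposited unnormalized whole-number counts of reads for each gene. Reads were aligned to mm10 with STAR 2.5.2b per the submitters' processing notes, and counted with MAP-RSeq 2.1.1 per the series design text; annotation release, strand setting and handling of multiply mapped reads were not found in the labels. Labels do not say how replicates were raised; each title has a different number, taken as 1 animal, and p-values measure the spread between these libraries.

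Genes were filtered with filterByExpr by group, which kept 21891 genes, and scaled with TMM. All libraries entered 1 edgeR 4.0.16 quasi-likelihood fit (R 4.3.3) with 1 coefficient per group, two-sided, for 5 contrasts: LPS in each genotype, genotype in each stimulus, and the interaction. P-values were Benjamini-Hochberg adjusted over all genes, at 0.05. The SE is derived from the log2 fold change and the square root of F, and 95% intervals use the test's degrees of freedom. CPM include TMM factors; log2 CPM add a prior count of 2. Levels per kilobase use the table's gene length column; the M21 exon length was an added alternative. The smallest exact permutation p of 6 against 6 is 0.00216. The scripts were tested on simulated counts.

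The 10 genes, the lists and the rules were chosen with earlier results of these data known. Named are the 10 genes, for each list the 3 members with the lowest adjusted p in control mice (1 such gene is not reported here), defining cell markers, and the 5 genes most like Tek, Angpt2, Vegfa and Angpt1. Overlaps come from GENCODE M21. Alternatives were DESeq2 1.42.0, DESeq2 size factors, no filter, 2 groups only, age, Ttr or Pecam1 as covariates, surrogate variables (sva 3.50.0), no ribosomal loci, and each library left out. Replicate numbers only name libraries in accession order and do not pair them.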

Additional observations from a re-analysis of the deposited data

Results flagged for a closer look

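In 3 of 40 combinations of gene and group, 1 of the 6 libraries stood apart from the rest, by Dixon's test at the 95% level. Chance alone gives about 1 in 20 such groups where groups are independent. These 40 combinations share libraries, so the 3 were not weighed against that rate. Tek in replicate 4 of the LPS mice labelled Abca7 had a log2 CPM of 2.58, where the other 5 libraries had 1.89 to 2.14. Angpt1 in replicate 5 of the LPS control mice had a log2 CPM of 2.17, where the others had 2.43 to 2.55. Eng in the same library had a log2 CPM of 4.17, where the others had 4.23 to 4.27.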

How the results depend on the processing

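The calls of the 10 genes kept their direction under DESeq2, DESeq2 size factors, no filter, a fit of 2 groups, age as a factor, 3 surrogate variables and the removal of ribosomal loci: 9 were called under LPS in each genotype and 0 in the genotype and interaction contrasts. Leaving out any of the 24 libraries ended none of these calls. The Ttr covariate ended the calls of Vegfa and Eng in control mice. With the Pecam1 covariate, chosen after seeing the data, 2 of the 10 were called in each LPS contrast. Of 1640 recomputed fold changes, 37 changed sign, all for values that had not been called.

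Counts over all genes moved more. For LPS in mice labelled Abca7 (2591 genes) the Pecam1 covariate left 533. For LPS in control mice (3790 genes), 1626 were called with Ttr and 747 with Pecam1 as a covariate. The genotype contrast without LPS (7 genes; 1426 at an unadjusted p under 0.05) gave 31 with DESeq2, 3 with only 2 groups, 49 with age, 3 with Ttr, 42 with surrogate variables and 2 to 38 with 1 library left out. Without replicate 1 of the control mice without LPS, 38 were called. The genotype contrast under LPS (0 genes; 1748 unadjusted) gave 2 with DESeq2, 2 with age, 3 with surrogate variables, 1 with Pecam1 and 0 to 1 with 1 library left out. The interaction (0 genes; 745 unadjusted, and 0 by DESeq2) gave 0 to 7 with 1 library left out, 7 without the same control library. The cause of these shifts was not tested.

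Angpt2 rests on as few as 59 counts in a library. With the M21 exon length in place of the table's, chosen after seeing the data, Nrp1 had 3.54 CPM per kilobase in mice labelled Abca7 without LPS in place of 5.87, and 3.55 in control mice without LPS in place of 5.88. LPS and age overlap only at 55 and 56 days.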

Other observations

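Genes of endothelial activation, a list separate from the vessel receptors, were nearly all higher under LPS: of 16, 13 rose and 0 fell in each genotype. Their summed level was 154 to 344 CPM under LPS and 112 to 127 CPM without LPS in mice labelled Abca7, and 275 to 356 CPM under LPS and 114 to 125 CPM without LPS in control mice. Ch25h, a cholesterol hydroxylase gene, rose by 4.49 ± 0.26 on the log2 scale in mice labelled Abca7 and by 5.18 ± 0.26 in control mice (edgeR adjusted p = 3.44e-13 and 2.1e-14). The adhesion molecule gene Vcam1 rose by 1.43 ± 0.10 in mice labelled Abca7 and by 1.71 ± 0.10 in control mice. Selp, the P-selectin gene, which endothelium stores in the same granules as angiopoietin 2, rose by 6.86 ± 0.50 in mice labelled Abca7 and by 8.35 ± 0.54 in control mice. It had very few counts without LPS, so the size of its fitted change depends on the prior count.

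Of 10 tested neutrophil and monocyte markers, 5 rose in mice labelled Abca7 and 7 rose in control mice, and none fell. Ms4a4c rose by 3.84 ± 0.61 in mice labelled Abca7 and by 4.03 ± 0.59 in control mice, S100a9 by 2.16 ± 0.41 in mice labelled Abca7 and by 2.59 ± 0.41 in control mice, and Fn1 by 0.22 ± 0.07 in mice labelled Abca7 and by 0.37 ± 0.07 in control mice. The granulocyte gene S100a8 rose by 1.87 ± 0.48 (edgeR adjusted p = 0.00919) in mice labelled Abca7 and by 2.19 ± 0.43 (edgeR adjusted p = 0.000401) in control mice. Its highest level was 0.606 CPM under LPS and 0.292 CPM without LPS in mice labelled Abca7, and 1.14 CPM under LPS and 0.281 CPM without LPS in control mice.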
